A study of Mus musculus with 6 samples.

Results

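The collagen chain genes are the rows of the deposited count table whose symbol is Col, a number, the letter a and a number. The rule found 44 such genes among 52550 rows. Of these, 9 belong to the fibrillar types I, II, III, V and XI, 8 to the basement membrane types IV, XV and XVIII, and 27 to other types. A low-count filter left 41 of the 44 for testing, and Col9a1, Col10a1 and Col19a1 had too few counts to be tested.

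RNA was sequenced from cells sorted as AT2 cells (alveolar type II), which line the air sacs and secrete surfactant, from lungs of C57BL/6 mice. Lungs were digested with dispase and cells negative for the leukocyte antigen CD45 and positive for the epithelial antigen EPCAM were taken by magnetic sorting. The 3 libraries labelled Grp78KO came from mice of genotype Sftpc+/creERT2; Grp78f/f with Tmx, and the 3 control libraries from the same genotype without Tmx. Tmx is read here as tamoxifen, which activates the creERT2 recombinase; Cre is placed at Sftpc, a gene of AT2 cells. All 6 samples carry a day label that counts 10 days from an injection of Tmx. For the controls that label conflicts with the genotype label, so whether they received Tmx is in doubt. If they did not, tamoxifen and the deletion cannot be told apart. No age is stated in the labels, and nothing says that the libraries came from separate mice. The p-values therefore measure the spread between these libraries, which may be technical.

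Collagens are secreted proteins of the extracellular matrix, built as trimers of chains that wind around each other. The chains are translated into the endoplasmic reticulum (ER), where prolines and lysines are hydroxylated and the trimer folds, and the ER chaperone GRP78, encoded by Hspa5, is the protein named by the knockout. Fibroblasts make most of the fibrillar collagen of the lung, and type IV collagen forms the sheet on which alveolar epithelium and capillary endothelium rest.

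Library totals ranged from 110770711 to 128129307 counts in the knockout-labelled libraries and from 131235053 to 149520306 in controls. Values below are CPM, counts relative to library size, scaled by TMM, a factor that aligns the bulk of genes between libraries. Hspa5 itself stood at 9262, 9180 and 3809 CPM in the knockout-labelled libraries, against 1355, 1289 and 925 CPM in controls. Its gene-level count is higher, not lower, under the knockout label (log2 fold 2.64, SE 0.36, edgeR adjusted p = 0.00208), and gene-level counts do not show whether the floxed part was removed. Directions below therefore compare libraries by label. The 11 AT2 markers checked, Sftpc among them, were present at a summed 40292 to 51013 CPM in knockout-labelled libraries and 103270 to 120140 CPM in controls, and all 11 were lower. Libraries numbered 3 stood apart in both groups. The mean chi-square per gene between 2 libraries was computed on halved counts. It is then about 1 under sampling noise alone if both mates of each read pair were counted, which was not tested. It was 7.90 between knockout-labelled libraries 1 and 2 and 136 to 168 between these and library 3. Among controls it was 19.4 between 1 and 2 and 77.2 to 110.8 between these and 3. Leukocyte markers other than Lyz2, which AT2 cells also express, summed to 16.1, 16.6 and 85.9 CPM in knockout-labelled libraries, against 13.7, 13.5 and 19.2 CPM in controls, although cells carrying CD45 were to be removed. The part of leukocytes in the values of knockout-labelled library 3 was not tested. Results that rest on the libraries numbered 3 are given with and without them, except where stated.

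Most fibrillar collagen genes rose, and 4 of the 6 type IV collagen genes fell, in the knockout-labelled libraries. Of the 41 tested members, 15 were higher and 5 lower by edgeR's quasi-likelihood test at a Benjamini-Hochberg adjusted p under 0.05. Over all 18849 genes tested, 18.0% were called higher and 18.8% lower. Among fibrillar genes 7 of 9 were higher and none lower. Their median log2 fold was 1.99, where the median of all genes tested was 0.02. Col2a1, counted here, and Col24a1, of another type, passed the low-count filter only through the knockout-labelled libraries. For both genes a higher call was the only call open. No fibrillar gene was lower with DESeq2 or limma-voom either, nor at an unadjusted p under 0.05. Among basement membrane genes 2 were higher and 4 lower, with a median of -0.54. Of the 24 tested members of other types 6 were higher and 1 lower, with a median of 0.45. The groups did not overlap for 24 members, 17 with the knockout-labelled libraries higher and 7 with them lower; over all genes the shares were 25.0% and 26.6%.

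Of the 15 higher calls, 11 held whichever library was left out, against 1 of the 5 lower calls. The 11 include Col2a1 and Col24a1, for which no lower call was open. Without control 1, 2 or 3, the higher members numbered 12, 12 and 15 (all genes 11.8%, 8.67% and 14.1%) and the lower members 5, 2 and 3 (all genes 15.2%, 10.4% and 16.2%). Without knockout-labelled library 1, 2 or 3, the higher members numbered 12, 13 and 17 (all genes 10.1%, 9.82% and 22.0%) and the lower members 1, 1 and 8 (all genes 10.4%, 9.73% and 22.4%). Without both libraries numbered 3, 18 members were higher and 9 lower (all genes 28.3% and 27.7%). Scaling by library size alone moved the median of all genes to 0.27 and gave 19 higher members and 1 lower (all genes 33.0% and 7.13%). Upper-quartile factors gave 17 and 3 (all genes 21.7% and 15.0%), and the replicate number as a block 16 and 6 (all genes 21.9% and 22.8%).

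**Figure D1:**
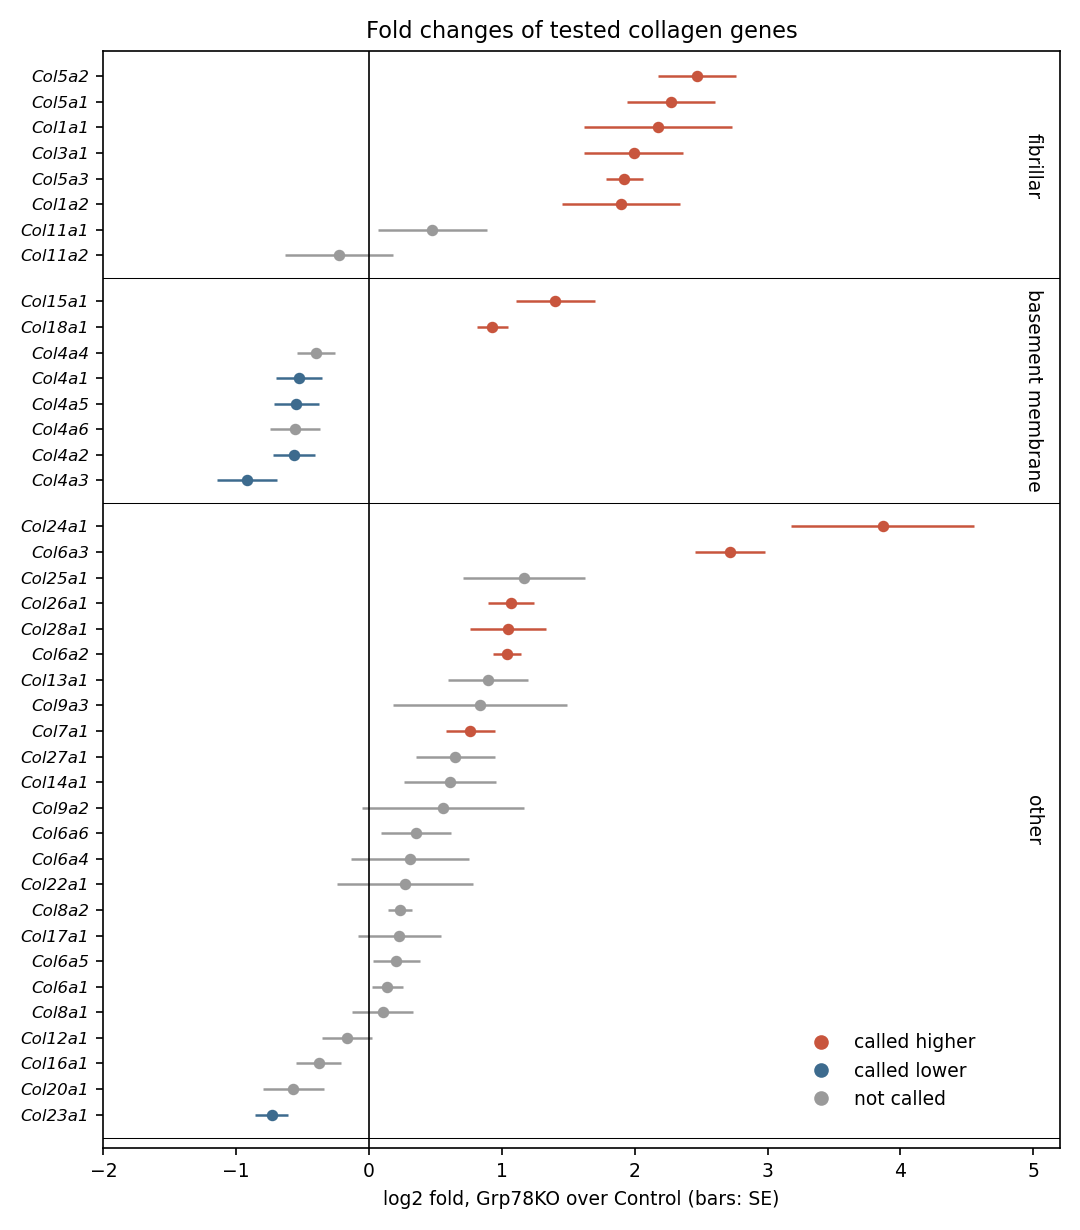
Log2 fold (knockout-labelled libraries over controls) of tested collagen genes, by class, with bars of 1 SE. Red points were called higher, blue points lower and grey points not called. Col2a1 is not drawn because its control libraries were all at 0. The called fibrillar genes lie near a log2 fold of 2, and the 6 type IV genes lie below 0.

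Types I, III and V, which assemble into the banded fibrils of connective tissue, rose together. Col1a1 encodes the chain that type I collagen holds in excess (chromosome 11, 94936224 to 94953042, plus strand, GENCODE M21 on GRCm38, the mm10 build). It stood at 297, 323 and 404 CPM in knockout-labelled libraries 1, 2 and 3, and at 36.8, 39.1 and 151 CPM in controls 1, 2 and 3. The groups did not overlap, and control 3 was 3.98-fold above the mean of controls 1 and 2. Col1a1 was 4.52-fold higher in the knockout-labelled libraries (log2 fold 2.18, SE 0.56, edgeR adjusted p = 0.0225). Its partner Col1a2 (chromosome 6, 4504814 to 4541544, plus strand) had 286, 305 and 354 CPM in the knockout-labelled libraries, against 50.2, 50.6 and 153 CPM in controls. The log2 fold came to 1.90, with SE 0.44 and an edgeR adjusted p = 0.0165. Control 3 was again the high control, and the lowest knockout-labelled library was above it.

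Col3a1, the chain of type III collagen found in distensible tissues (chromosome 1, 45311538 to 45349706, plus strand), had 417, 456 and 405 CPM in the knockout-labelled libraries. In controls it had 69.2, 73.0 and 179 CPM. Its groups were separate (log2 fold 1.99, SE 0.37, edgeR adjusted p = 0.00707). Type V collagen, a minor component that starts fibrils and limits their width, rose in all of its chains. Col5a2 had 42.9, 52.1 and 43.6 CPM in knockout-labelled libraries, against 5.64, 6.73 and 12.6 CPM in controls (log2 fold 2.47, SE 0.30, edgeR adjusted p = 0.00152). Col5a1 had 34.1, 39.0 and 37.2 CPM, against 4.92, 5.71 and 12.1 CPM in controls (log2 fold 2.28, SE 0.33, edgeR adjusted p = 0.00307). Col5a3 was the steadiest fibrillar gene, without the high value in control 3. It had 5.89, 6.13 and 5.95 CPM in knockout-labelled libraries, against 1.53, 1.48 and 1.74 CPM in controls (log2 fold 1.92, SE 0.14, edgeR adjusted p = 0.000397).

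The call of Col1a1 ended without control 1, control 2, or knockout-labelled library 1 or 2 (edgeR adjusted p = 0.0598, 0.0696, 0.0696 and 0.0565). That of Col1a2 ended without control 2 or knockout-labelled library 1 (edgeR adjusted p = 0.054 and 0.0563). With no low-count filter neither was called (edgeR adjusted p = 0.103 for Col1a1 and 0.0705 for Col1a2). Without control 3 the folds were larger, with log2 folds of 3.16 for Col1a1, 2.64 for Col1a2, 2.58 for Col3a1, 2.89 for Col5a2 and 2.78 for Col5a1. Without both libraries numbered 3 they were 3.04, 2.56, 2.62, 2.94 and 2.78 in the same order, and all 5 were called.

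The cartilage-type fibrillar genes were near the limit of detection. Col2a1, the chain of type II collagen, had 25, 36 and 12 counts in the knockout-labelled libraries and 0 counts in each control. Against a floor of 3 counts per control library it was at least 7.24-fold higher, and the test called it (edgeR adjusted p = 0.0071). Having passed the low-count filter through the knockout-labelled libraries alone, it could not have been called lower. Of 8 cartilage markers 5 were tested and 1 was higher (all genes 18.0%), Hapln1, a matrix link protein gene (log2 fold 2.04). The list summed to 3.03 to 4.32 CPM in knockout-labelled libraries and 1.67 to 2.98 CPM in controls. Acan, the main cartilage proteoglycan gene, had no counts in controls and 0.0142 to 0.0294 CPM in knockout-labelled libraries. The part of cartilage cells in the Col2a1 counts was not tested. Col11a1 (log2 fold 0.48, SE 0.41, edgeR adjusted p = 0.392) and Col11a2 (log2 fold -0.23, SE 0.41, edgeR adjusted p = 0.689) had overlapping groups, all under 1 CPM. The sign of Col11a2 turned with library-size scaling (log2 fold 0.03) and without control 3 (0.14).

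**Figure D2:**
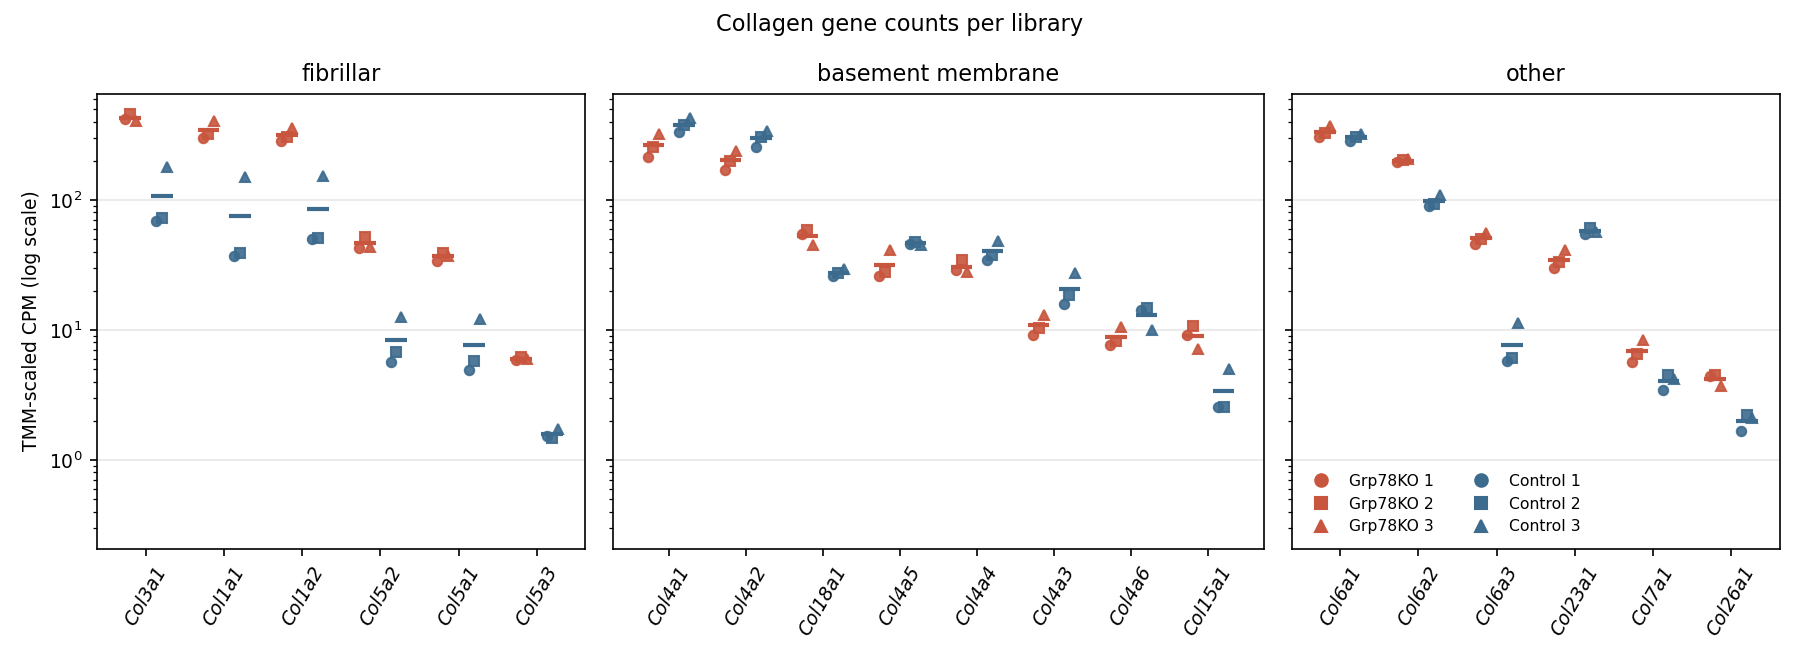
TMM-scaled CPM (log axis) of the called or most abundant collagen genes, with 1 point per library and a line at each group mean. Knockout-labelled libraries are red and controls blue; circles, squares and triangles are libraries 1, 2 and 3. Col1a1, Col1a2, Col3a1, Col5a1 and Col5a2 show control 3 above the other controls and below every knockout-labelled library.

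Promoters of fibrillar genes that moved together are shown for Col1a2 and Col3a1, to set them beside the type IV promoters given further on. Each window holds 250 bases before and 50 after the start annotated by RefSeq on GRCm38.p6, written 5′ to 3′ on the gene's strand. Capitals mark the CCAAT box, the GC-box core GGGCGG and the TATA-box core TATAA on either strand, where neighbouring matches may overlap. The Col1a2 window is chr6:4505368-4505667, plus strand, and the Col3a1 window chr1:45311288-45311587, plus strand. For Col1a2 the RefSeq start (4505618) lies downstream of the GENCODE M21 start (4504814), so its window lies inside the gene as GENCODE places it.
Col1a2: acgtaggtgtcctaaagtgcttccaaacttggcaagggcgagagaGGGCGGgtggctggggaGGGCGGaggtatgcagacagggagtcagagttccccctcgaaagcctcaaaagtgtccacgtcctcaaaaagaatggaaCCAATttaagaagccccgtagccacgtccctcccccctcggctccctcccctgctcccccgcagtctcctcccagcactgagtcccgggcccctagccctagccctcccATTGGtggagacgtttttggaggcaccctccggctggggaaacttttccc
Col3a1: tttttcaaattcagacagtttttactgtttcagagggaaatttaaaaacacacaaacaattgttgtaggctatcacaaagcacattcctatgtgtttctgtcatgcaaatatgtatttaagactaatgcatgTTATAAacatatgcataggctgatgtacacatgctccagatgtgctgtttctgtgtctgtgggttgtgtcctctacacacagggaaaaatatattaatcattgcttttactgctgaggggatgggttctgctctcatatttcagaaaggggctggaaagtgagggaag
The Col1a2 window holds 2 CCAAT and 2 GGGCGG matches and is 61% G or C. The Col3a1 window holds neither and is 37.7% G or C. Its 2 TATAA matches are the same stretch, TTATAA, read on either strand. Promoter windows were found for 35 of the 44 members, in 38 windows. CCAAT was present in 34.2% of these 38 windows and in 37.4% of all 32851 windows, GGGCGG in 60.5% and 35.7%, and TATAA in 18.4% and 24.9%. TGATGCAA, a form of the element bound by ATF4 with C/EBP, was in no member window and in 0.895% of all windows; the ER stress element, searched as its consensus, was in no member window and in 0.119% of all windows. Both strands were searched in every case.

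Markers of fibroblasts moved with the fibrillar genes. Of 15 fibroblast markers that are not collagens, 12 were higher and none lower, with a median log2 fold of 1.37. None had 0 counts in any library, and over all genes tested 18.0% were called higher. Lsp1, among the 12, had 2.49, 2.73 and 9.96 CPM in knockout-labelled libraries 1, 2 and 3, with library 3 the high one as for leukocyte markers. Eln, a matrix gene, made up 25.4% of the list's sum over all libraries. The list summed to 469, 501 and 496 CPM in knockout-labelled libraries 1, 2 and 3, against 169, 168 and 287 CPM in controls 1, 2 and 3. Control 3 was therefore the high control for these markers as well as for the fibrillar genes. The 9 fibrillar genes summed to 1084, 1182 and 1251 CPM in knockout-labelled libraries, against 169, 177 and 510 CPM in controls. Divided by the fibroblast marker sum of the same library, the fibrillar sum was 2.31, 2.36 and 2.52 in knockout-labelled libraries, against 0.997, 1.05 and 1.78 in controls. Bulk RNA does not tell more cells of a type from more RNA per cell, and the part of fibroblasts in the fibrillar rise was not tested. Of 11 smooth muscle and pericyte markers 6 were higher and 1 lower (48.2 to 74.6 CPM in knockout-labelled libraries, 35.6 to 37.9 CPM in controls). Of 8 mesothelial markers 7 were higher (207 to 239 CPM against 119 to 133 CPM in controls).

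**Figure D3:**
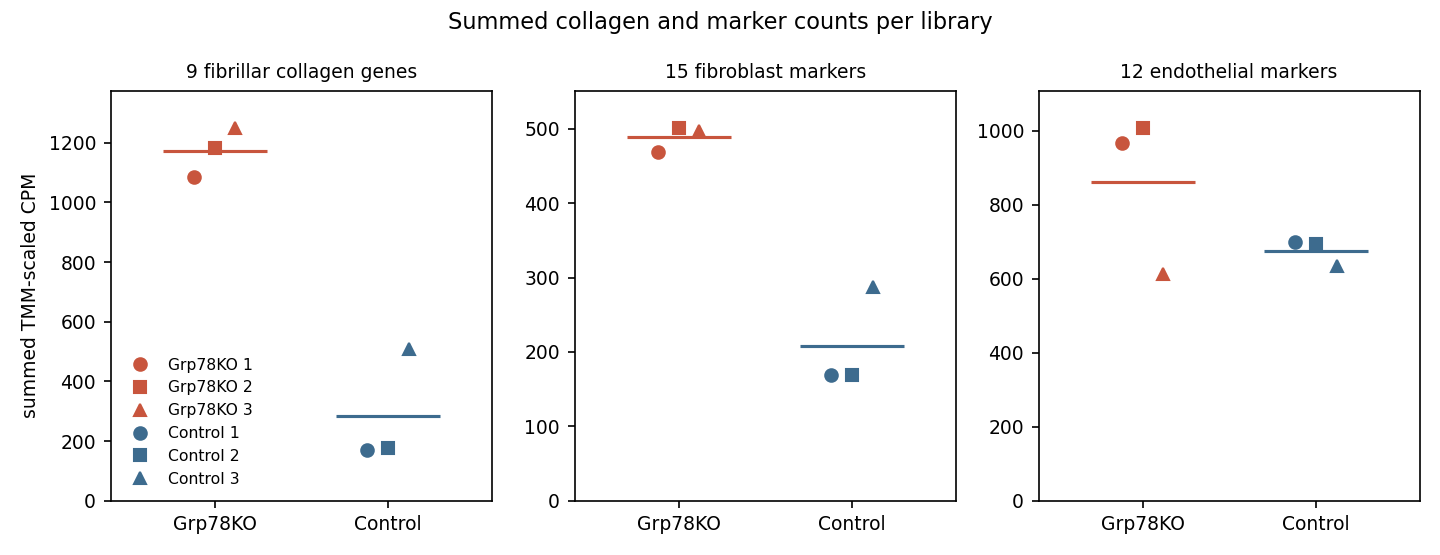
Summed TMM-scaled CPM of the 9 fibrillar genes, of 15 fibroblast markers and of 12 endothelial markers, with 1 point per library and a line at each group mean. Control 3 (triangle) is the highest control for the fibrillar genes and the fibroblast markers, and knockout-labelled library 3 is the lowest library for the endothelial markers.

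Type IV collagen genes encode the network of basement membranes, and 4 of the 6 fell. Col4a1 and Col4a2 encode the chains of the form found in nearly all basement membranes. Col4a1 (chromosome 8, 11198423 to 11312826, minus strand) had 215, 253 and 321 CPM in the knockout-labelled libraries, against 333, 379 and 426 CPM in controls. It was called lower (log2 fold -0.53, SE 0.17, edgeR adjusted p = 0.0442). Col4a2 (chromosome 8, 11312805 to 11449287, plus strand) had 170, 200 and 238 CPM in the knockout-labelled libraries, against 256, 304 and 340 CPM in controls (log2 fold -0.56, SE 0.16, edgeR adjusted p = 0.0289). The groups were separate for both, but knockout-labelled library 3 came close to control 1.

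Col4a3, Col4a4 and Col4a5 encode the network of alveolar and glomerular basement membranes, and Col4a6 pairs with Col4a5 in others. Col4a3 had the largest fall of the type IV genes, with 9.08, 10.4 and 13.1 CPM in knockout-labelled libraries, against 15.7, 18.5 and 27.4 CPM in controls (log2 fold -0.92, SE 0.23, edgeR adjusted p = 0.0172). Col4a5 had 26.1, 27.7 and 40.9 CPM in knockout-labelled libraries, against 46.0, 47.7 and 44.8 CPM in controls (log2 fold -0.55, SE 0.17, edgeR adjusted p = 0.0374). Knockout-labelled library 3 was the high one for Col4a5, though still below the controls. Col4a4 had 29.1, 34.4 and 27.7 CPM in knockout-labelled libraries, against 34.7, 37.4 and 48.3 CPM in controls, and did not pass (log2 fold -0.40, SE 0.15, edgeR adjusted p = 0.0651). Col4a6 had 7.59, 8.18 and 10.6 CPM in knockout-labelled libraries, against 14.3, 14.6 and 9.89 CPM in controls, so that its groups overlapped through the libraries numbered 3. It did not pass (log2 fold -0.56, SE 0.19, edgeR adjusted p = 0.0505). Without both libraries numbered 3 its log2 fold was -0.87 (edgeR adjusted p = 2.03e-05).

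The DESeq2 test, which called 20.5% of all genes lower, called all 6 type IV genes lower, with Col4a4 at an adjusted p of 0.045 and Col4a6 at 0.0249. Col4a6 was also called with no low-count filter (edgeR adjusted p = 0.0421), with halved counts (0.0493), without control 3 (0.0161) and without knockout-labelled library 3 (0.0179).

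All 6 type IV genes kept a negative log2 fold under every alternative run, but none of the 4 calls held in every fit that left out 1 library. The call of Col4a1 ended without control 2, control 3, or knockout-labelled library 1 or 2 (adjusted p 0.114, 0.106, 0.136 and 0.134 with edgeR). That of Col4a2 ended without the same libraries (edgeR adjusted p = 0.088, 0.0712, 0.0953 and 0.0932). Col4a5 lost its call without control 1, 2 or 3 or knockout-labelled library 1 or 2 (edgeR adjusted p = 0.075, 0.102, 0.0675, 0.109 and 0.127). Col4a3 lost it without knockout-labelled library 1 or 2 (edgeR adjusted p = 0.0617 and 0.0628). None of the 4 was called with library-size scaling, and their log2 folds ran from -0.67 for Col4a3 to -0.27 for Col4a1, where the median of all genes was 0.27. Upper-quartile scaling ended the calls of Col4a1 and Col4a5 (edgeR adjusted p = 0.0716 and 0.0574), and DESeq2 size factors that of Col4a1 (edgeR adjusted p = 0.0526).

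Col15a1 and Col18a1 went the other way from type IV. Both encode collagens of the basement membrane zone whose helix is interrupted many times, and the end of the Col18a1 protein is released as endostatin. Col18a1 had 54.2, 58.7 and 44.5 CPM in the knockout-labelled libraries, against 26.0, 27.2 and 29.5 CPM in controls (log2 fold 0.93, SE 0.12, edgeR adjusted p = 0.00163). Col15a1 had 9.12, 10.6 and 7.10 CPM in the knockout-labelled libraries, against 2.56, 2.55 and 5.03 CPM in controls (log2 fold 1.40, SE 0.29, edgeR adjusted p = 0.00978). Both calls held whichever library was left out. Knockout-labelled library 3 was the lowest of its group for both, as it was for the 12 endothelial markers, which summed to 968, 1008 and 612 CPM in knockout-labelled libraries and to 698, 695 and 633 CPM in controls. Of these markers 1 was higher, Vwf, and none lower, and none had 0 counts in any library; at an unadjusted p under 0.05 edgeR put 4 higher and 1 lower. Of 12 markers of type I alveolar cells, the thin gas-exchange cells, 2 were higher and 4 lower. The list summed to 1699 to 1742 CPM in knockout-labelled libraries against 2430 to 2692 CPM in controls. Over all genes tested 18.0% were called higher and 18.8% lower, so higher calls in both lists were no more frequent than among all genes. The part of endothelial and type I cells in the basement membrane values was not tested.

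The promoters of Col4a1 and Col4a2 are shown because the genes lie head to head and moved alike. Their annotated starts lie 21 bases apart and the windows share 78 bases. The Col4a1 window is chr8:11312777-11313076, minus strand, and the Col4a2 window chr8:11312555-11312854, plus strand, each from RefSeq on GRCm38.p6 with the same motifs in capitals.
Col4a1: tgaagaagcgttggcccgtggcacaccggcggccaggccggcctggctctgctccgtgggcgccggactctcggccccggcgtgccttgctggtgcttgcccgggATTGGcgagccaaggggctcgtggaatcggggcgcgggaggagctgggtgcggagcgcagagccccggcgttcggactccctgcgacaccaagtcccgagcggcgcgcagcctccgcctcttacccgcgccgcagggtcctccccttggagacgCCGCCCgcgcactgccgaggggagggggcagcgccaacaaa
Col4a2: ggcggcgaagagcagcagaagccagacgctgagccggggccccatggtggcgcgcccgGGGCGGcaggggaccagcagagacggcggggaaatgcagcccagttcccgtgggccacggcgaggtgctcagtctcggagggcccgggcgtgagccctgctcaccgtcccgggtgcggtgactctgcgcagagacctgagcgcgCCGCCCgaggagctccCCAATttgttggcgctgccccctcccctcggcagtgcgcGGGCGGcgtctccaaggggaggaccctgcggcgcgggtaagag
The Col4a1 window holds 1 CCAAT and 1 GGGCGG match and no TATAA, with 74% G or C. The Col4a2 window holds 1 CCAAT and 3 GGGCGG matches and no TATAA, with 73.7% G or C. The first exons of the genes overlap by 22 bases on opposite strands, and reads there cannot be told apart without strand.

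Type VI collagen forms beaded filaments around cells, and 2 of its 6 genes rose. Col6a1 (chromosome 10, 76708792 to 76726168, minus strand) ranked first among collagen genes per kilobase of coding transcript in both groups, at 81.5 ± 8.3 CPM per kilobase in knockout-labelled libraries and 74.2 ± 4.5 in controls (SD, n = 3 each). Its rank in the knockout-labelled libraries rests on library 3, since Col3a1 was above it in libraries 1 and 2 (75.0 against 74.2, and 81.9 against 79.9 CPM per kilobase). Its CPM was 304, 327 and 371 in knockout-labelled libraries, against 285, 305 and 322 in controls, with overlapping groups (log2 fold 0.14, SE 0.12, edgeR adjusted p = 0.384). Col6a2 (chromosome 10, 76595762 to 76623630, minus strand) was 2.06-fold higher, with 194, 203 and 205 CPM in knockout-labelled libraries, against 90.3, 92.7 and 109 CPM in controls (log2 fold 1.04, SE 0.10, edgeR adjusted p = 0.000784). Col6a3, the long chain of this trimer (chromosome 1, 90765923 to 90843971, minus strand), was 6.57-fold higher. It had 45.6, 49.9 and 56.0 CPM in the knockout-labelled libraries, against 5.75, 6.08 and 11.2 CPM in controls (log2 fold 2.72, SE 0.26, edgeR adjusted p = 0.000755). The alternative chains Col6a4, Col6a5 and Col6a6 were not called, at log2 folds of 0.31, 0.21 and 0.35, and Col6a4 had only 10 to 29 counts in any library.

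Transmembrane collagens are shed from the cell surface, and Col23a1 was the most abundant of the 4. It was the only member outside type IV called lower in the main edgeR fit, with 29.9, 33.0 and 40.9 CPM in knockout-labelled libraries, against 54.8, 61.1 and 56.7 CPM in controls (log2 fold -0.73, SE 0.13, edgeR adjusted p = 0.00463). That call held whichever library was left out. Col13a1 had 2.93, 2.90 and 1.502 CPM in knockout-labelled libraries, against 1.03, 1.34 and 1.57 CPM in controls (log2 fold 0.89, edgeR adjusted p = 0.0522). Knockout-labelled library 3 lay within the range of controls, and without it Col13a1 was called (log2 fold 1.15, edgeR adjusted p = 0.00517). With all 6 libraries it was called under each other scaling and filter run, with halved counts and with DESeq2 (adjusted p 0.013 to 0.0499), and not with limma-voom or the replicate block. Col25a1 had 26 to 32 counts in knockout-labelled libraries and 6 to 19 in controls (log2 fold 1.17, edgeR adjusted p = 0.0825), and was called with library-size scaling (edgeR adjusted p = 0.0383). Col17a1, a hemidesmosome collagen of basal epithelium, stayed under 1 CPM in every library (log2 fold 0.23, edgeR adjusted p = 0.594).

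None of the 7 tested fibril-associated collagens, which coat fibrils without forming them, was called in either direction by edgeR, DESeq2 or limma-voom. At an unadjusted p under 0.05 edgeR put 1 lower, Col20a1, and none higher. Col12a1 had 16.8, 18.7 and 27.8 CPM in knockout-labelled libraries, against 21.3, 25.1 and 24.5 CPM in controls (log2 fold -0.16, SE 0.19, edgeR adjusted p = 0.52). Col14a1 shared the high control 3 of the fibrillar genes, with 22.1, 24.8 and 31.5 CPM in knockout-labelled libraries, against 11.4, 12.3 and 27.6 CPM in controls (log2 fold 0.61, SE 0.34, edgeR adjusted p = 0.203). Without control 3 it was called (log2 fold 1.13, edgeR adjusted p = 0.00528), and with the replicate number as a block it was called too (log2 fold 0.71, edgeR adjusted p = 0.0269). Col16a1 had 10.0, 11.6 and 13.3 CPM in knockout-labelled libraries, against 12.2, 15.1 and 18.1 CPM in controls (log2 fold -0.38, edgeR adjusted p = 0.111). With the replicate block it was called lower (log2 fold -0.37, edgeR adjusted p = 0.015), and so it was without control 1 (edgeR adjusted p = 0.0486). Without knockout-labelled library 3, Col12a1 and Col20a1 were called lower (log2 folds -0.42 and -0.73). Col20a1, Col9a2, Col9a3 and Col22a1 had log2 folds of -0.57, 0.56, 0.84 and 0.27, and all but Col20a1 had under 50 counts in any library.

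Among the remaining members, Col7a1 encodes the anchoring fibrils that tie epithelium to the matrix below. It had 5.68, 6.55 and 8.33 CPM in the knockout-labelled libraries, against 3.42, 4.49 and 4.19 CPM in controls (log2 fold 0.76, SE 0.18, edgeR adjusted p = 0.0154), a call that ended without control 1 (edgeR adjusted p = 0.0521). Col26a1 had 4.38, 4.47 and 3.71 CPM in knockout-labelled libraries, against 1.66, 2.22 and 2.11 CPM in controls (log2 fold 1.07, SE 0.18, edgeR adjusted p = 0.00398). The groups were separate for both genes. Col24a1, of a minor fibrillar-type collagen, rose with 38, 39 and 48 counts in knockout-labelled libraries, against 0, 3 and 5 in controls (log2 fold 3.87, SE 0.69, edgeR adjusted p = 0.00526). It passed the low-count filter only through the knockout-labelled libraries. Its relative Col27a1 was not called (log2 fold 0.65, edgeR adjusted p = 0.122), but it was called without knockout-labelled library 3 (edgeR adjusted p = 0.0295), without both libraries numbered 3 (0.0203) and with library-size scaling (0.0427). Col28a1, a collagen best known from peripheral nerve, rose with 92, 94 and 120 counts in knockout-labelled libraries, against 45, 61 and 36 in controls (log2 fold 1.05, SE 0.29, edgeR adjusted p = 0.0251). Its call held only when knockout-labelled library 3 was the library left out, with edgeR adjusted p = 0.0521 to 0.0806 in the other 5 fits.

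The short-chain network collagens did not pass the test. Col8a2 was well expressed and higher in each knockout-labelled library, with 75.9, 74.6 and 78.0 CPM, against 69.1, 67.4 and 58.1 CPM in controls (log2 fold 0.23, SE 0.09, edgeR adjusted p = 0.0825). It was called with library-size scaling (log2 fold 0.49, edgeR adjusted p = 0.00408) and upper-quartile scaling (log2 fold 0.31, edgeR adjusted p = 0.0269). Col8a1 stayed between 1.495 and 2.51 CPM (log2 fold 0.10, edgeR adjusted p = 0.747). Among the untested genes, Col10a1, a cartilage network collagen, had 10, 0 and 6 counts in knockout-labelled libraries and 6, 2 and 4 in controls. Col19a1 had 8, 2 and 4 counts in knockout-labelled libraries and 2, 4 and 9 in controls. Col9a1, a fibril-associated collagen of cartilage, had 4, 4 and 32 counts in knockout-labelled libraries and 0, 4 and 2 in controls, so that 1 library held most of them.

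The make-up of the collagen counts shifted between the groups. Fibrillar genes took 46.6%, 46.3% and 44.7% of the collagen CPM in knockout-labelled libraries, against 11.6%, 10.98% and 24.5% in controls. Basement membrane genes took 22.4%, 23.6% and 25.1% in knockout-labelled libraries, against 49.8%, 51.6% and 44.6% in controls. The knockout-labelled libraries thus lay close together, and control 3 lay between them and the other controls. These shares do not depend on the scaling between libraries. Per kilobase of the longest coding transcript, Col3a1 averaged 76.6 ± 4.8 CPM in knockout-labelled libraries and 19.3 ± 11.2 in controls (SD, n = 3 each), while Col4a1 averaged 39.8 ± 8.2 CPM in knockout-labelled libraries and 57.4 ± 7.0 in controls. After Col6a1, the next genes by mean level per kilobase were Col3a1, Col1a2 and Col1a1 in the knockout-labelled libraries, and Col4a1 and Col4a2 in controls. Neighbours in these orders whose means lie within their SDs, such as Col1a2 (58.9 ± 6.6) and Col1a1 (57.6 ± 9.4) in the knockout-labelled libraries, were not told apart.

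**Figure D4:**
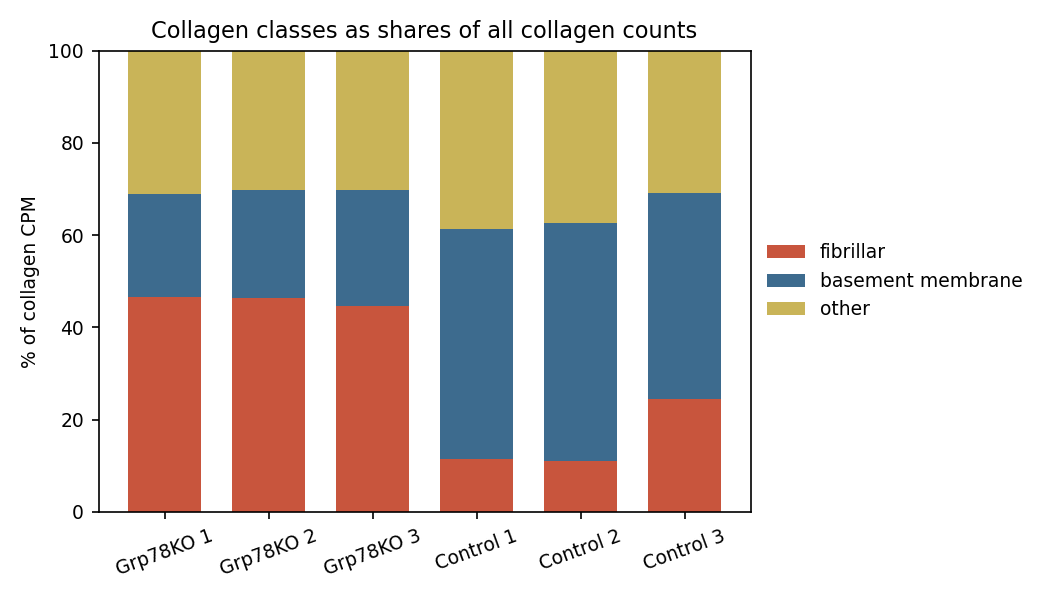
Share of all collagen CPM (percent) taken by fibrillar, basement membrane and other collagen genes in each library. Fibrillar genes take 44.7% to 46.6% in the knockout-labelled libraries and 10.98% to 24.5% in controls.

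Ratios between collagen chains were compared within each library, where scaling cancels: 4 within a collagen type's trimer or network, Col4a3 to Col4a1 between type IV networks, and Col1a1 to Col3a1 between types I and III. With 3 libraries against 3, the exact permutation test cannot go below p = 0.1, and p-values were adjusted over 6 ratios. The log2 ratio of Col6a1 to Col6a2 counts was 0.65, 0.69 and 0.86 in knockout-labelled libraries, against 1.66, 1.72 and 1.56 in controls. It differed by -0.91, with separate groups (exact two-sided p = 0.1, adjusted 0.2). That of Col1a1 to Col1a2 was 0.06, 0.08 and 0.19 in knockout-labelled libraries, against -0.45, -0.37 and -0.02 in controls, a difference of 0.39 (exact two-sided p = 0.1, adjusted 0.2). The ratio of Col4a3 to Col4a1 was also separate, at -4.56, -4.61 and -4.62 in knockout-labelled libraries, against -4.41, -4.36 and -3.96 in controls (difference -0.35, exact two-sided p = 0.1, adjusted 0.2). Col4a1 to Col4a2 differed least, with means of 0.37 ± 0.06 in knockout-labelled libraries and 0.34 ± 0.04 in controls (SD, n = 3 each; exact two-sided p = 0.5). The difference in the ratio Col4a1 to Col4a2 turned to -0.0055 without knockout-labelled library 3. Col4a3 to Col4a4 (difference -0.50, exact two-sided p = 0.2) and Col1a1 to Col3a1 (difference 0.36, exact two-sided p = 0.3) had overlapping groups, with libraries 3 high in both groups. Within same-numbered pairs 1, 2 and 3, a comparison added after the data were seen, Col4a3 to Col4a4 differed by -0.53, -0.72 and -0.26, and Col1a1 to Col3a1 by 0.42, 0.40 and 0.24. The sign was the same in all 3 pairs for both, and the exact sign-flip test gave p = 0.25, the smallest it can give with 3 pairs. Of the 6 ratios, Col4a1 to Col4a2 was the only one whose pairs differed in sign.

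**Figure D5:**
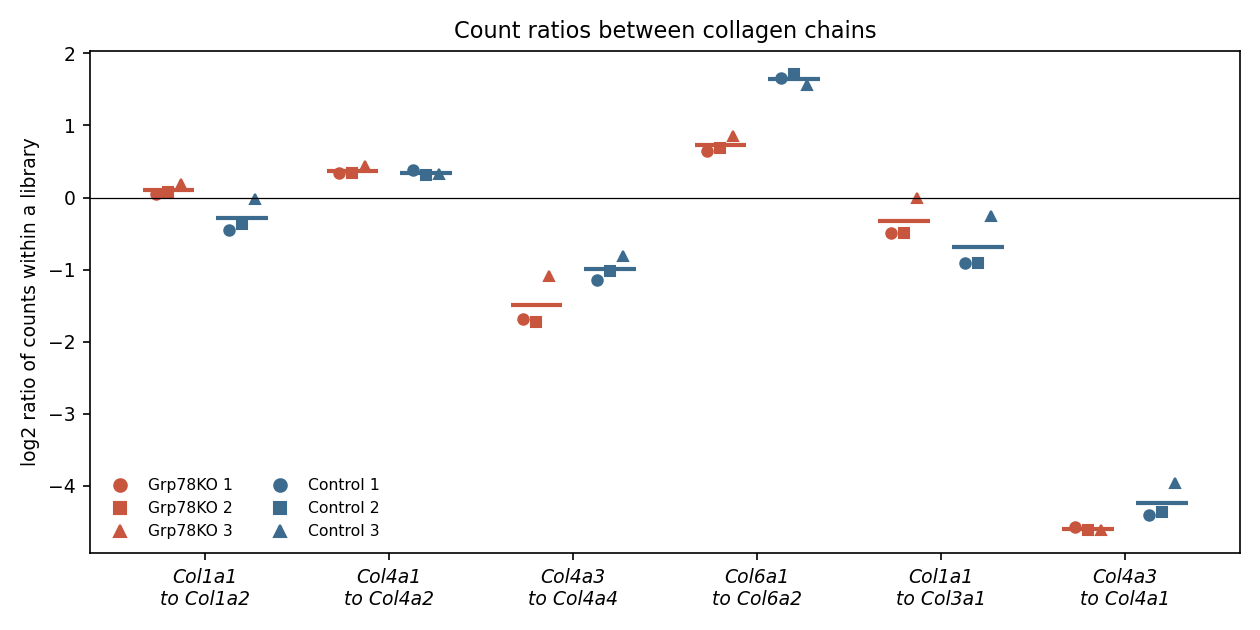
Log2 ratio of the counts of paired collagen chains within each library, with 1 point per library and a line at each group mean. The groups are apart for Col6a1 to Col6a2, Col1a1 to Col1a2 and Col4a3 to Col4a1, and Col4a1 to Col4a2 lies near 0.3 to 0.4 in every library.

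Several members are neighbours in the genome with no other protein-coding gene between them. Of 7 such pairs with both genes tested, Col4a1 with Col4a2 and Col3a1 with Col5a2 moved the same way and were both called. Col4a3 and Col4a4 lie head to head, 71 bases apart, and only Col4a3 was called (log2 folds -0.92 and -0.40). Col4a5 and Col4a6 on the X chromosome lie head to head, 1308 bases apart, with log2 folds of -0.55 and -0.56. Col6a1 and Col6a2 lie 85161 bases apart in the same direction, and only Col6a2 was called. The Col6a4, Col6a5 and Col6a6 cluster on chromosome 9 was not called. Exons of 10 members overlap a gene on the other strand in the annotation, Col4a3 with C430014B12Rik by 563 bases being the longest such overlap, and the counting is not stated to use strand.

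More of the genes that modify, export and bind collagen were called higher than lower. Of 71 genes in 6 lists 70 were tested, of which 38 were higher and 10 lower, with a median log2 fold of 0.51. Over all genes tested 18.0% were called higher and 18.8% lower, so the lower calls in these lists were no more frequent than among all genes. The counts for each list below stand beside the same shares. Among 14 genes of procollagen cleavage and cross-linking, 10 were higher and 1 lower. Lox, which cross-links fibrils by oxidising lysines, had 25.9 ± 5.7 CPM in knockout-labelled libraries and 3.72 ± 1.18 CPM in controls (SD, n = 3 each; log2 fold 2.80, edgeR adjusted p = 0.000644). Adamts14, a procollagen N-proteinase gene, rose by a log2 fold of 3.02 but was under 1 CPM in every library. It had 0.699, 0.773 and 0.843 CPM in knockout-labelled libraries, against 0.0877, 0.0887 and 0.107 CPM in controls. The controls alone would not have passed the low-count filter for Adamts14. Bmp1, the procollagen C-proteinase gene, fell by 0.68 on the log2 scale, a call that ended without control 2, control 3, or knockout-labelled library 1 or 2 (edgeR adjusted p = 0.0619, 0.0502, 0.0819 and 0.0905). Scaling by library size ended it too (edgeR adjusted p = 0.169).

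Of 15 modification enzymes 7 were higher and 3 lower. P4ha3, a catalytic subunit of prolyl 4-hydroxylase, rose by a log2 fold of 1.84 and Plod2, a lysyl hydroxylase gene, by 0.80. P4ha1, another catalytic subunit and more abundant than P4ha3, fell to 113 ± 1.6 CPM in knockout-labelled libraries, against 283 ± 99 CPM in controls (SD, n = 3 each; log2 fold -1.33, edgeR adjusted p = 0.00689). P3h2, a prolyl 3-hydroxylase gene, fell by 0.72. Of 8 folding and export genes 4 were higher and none lower by edgeR or limma-voom, among them Fkbp10, an ER prolyl isomerase gene (log2 fold 1.59), and Sec24d, a COPII coat gene (log2 fold 0.84). Serpinh1, which encodes the collagen chaperone HSP47 and was picked out after its values were seen, averaged 291 ± 69 CPM in knockout-labelled libraries and 344 ± 161 CPM in controls (SD, n = 3 each; log2 fold -0.24, edgeR adjusted p = 0.649). Libraries 1, 2 and 3 had 333, 329 and 211 CPM under the knockout label, and 450, 425 and 159 CPM in controls. The groups overlapped through control 3. No fit of Serpinh1 without the libraries numbered 3 is given, so it is not shown to be unchanged.

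Of 9 tested proteoglycans that bind fibrils 8 were higher, led by Bgn (log2 fold 1.67) and Dcn (log2 fold 1.22), which encode biglycan and decorin. Of 10 collagen receptors 3 were higher and 2 lower. Ddr2, a receptor kinase for fibrillar collagen, rose by a log2 fold of 1.34 and the epithelial Ddr1 by 0.44, whereas Itga1 and Itgb1, the integrin chains of a collagen receptor, fell by 0.49 and 0.43. Both integrin calls ended with library-size scaling (edgeR adjusted p = 0.093 and 0.23). That of Itgb1 ended also without control 2 or knockout-labelled library 1 or 2 (edgeR adjusted p = 0.0635, 0.0705 and 0.0661). Of 14 laminins and other partners of type IV collagen in basement membranes, 6 were higher, among them Lamb1 (log2 fold 0.82) and the nidogen gene Nid1 (log2 fold 1.32), and 4 lower, among them Lamb2 (log2 fold -0.93) and Lamb3 (log2 fold -0.73).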

How the data were processed

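Raw gene counts with gene symbols, from paired reads of NEBNext Ultra RNA libraries per the labels' protocols, were deposited for 6 libraries. The submitters' processing notes name mm10 and edgeR 3.7. Which aligner, counting tool and gene annotation the authors chose is not given in the sources used here. In each library, genes with 2 counts outnumbered genes with 1 by 1.63 to 1.76 times, a pattern that counting each mate would give; the cause was not tested. No pair of libraries agreed within sampling noise.

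Here edgeR 4.0.16 (R 4.3.3) was run on all genes: filterByExpr, TMM, robust quasi-likelihood F test, group as the only term, adjusted over the 18849 genes tested. Standard errors were taken as the size of the log2 fold over the root of F. The common coefficient of variation was 22.3%. The scripts were tested on simulated data. Positions, strands and transcript lengths are from GENCODE M21. The members and lists were chosen with earlier results of these data known. Per-library values were given for the 2 most abundant members of each class, called members of at least 1 CPM and all type IV genes; list genes named are the 2 with the lowest adjusted p each way. The block fit took its pairing from the numbers in the sample titles, and no label states a pairing. Deviations from the group means correlated at r = 0.35, 0.20 and 0.33 between same-numbered libraries over 18849 genes. Libraries 1 and 2 of different groups correlated too (r = 0.17 and 0.15), and libraries 3 correlated with the others at -0.35 to -0.21, so the pattern is mainly libraries 3 against 1 and 2; no label explains the numbers. Alternatives were DESeq2 1.42.0, limma-voom (limma 3.58.1), other scalings and filters, halved counts, the block and leaving out libraries. Of 12 leukocyte markers 9 were tested, with 1 higher and 1 lower. Of 6 basal cell markers 1 was higher, Ngfr, at 0.248 to 0.279 CPM in knockout-labelled libraries and 0.0613 to 0.0887 CPM in controls. The controls alone would not have passed the low-count filter for Ngfr. Over all genes tested 18.0% were called higher and 18.8% lower.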

Additional observations from a re-analysis of the deposited data

How the results depend on the processing

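Directions held for all called members under every alternative run. Left unchanged in direction and call in all of them were Col3a1, Col5a1, Col5a2, Col5a3, Col6a2, Col6a3, Col15a1, Col18a1, Col23a1 and Col26a1. So were Col2a1 and Col24a1 wherever a filter left them in the test, though the main filter admitted them only through the knockout-labelled libraries. With library-size scaling 1 member was lower, 0 of them basement membrane genes, 10 of the other types were higher, and 5 synthesis and handling genes were lower. Over all genes 33.0% were called higher and 7.13% lower under that scaling. With upper-quartile factors 3 members were lower, 2 of them basement membrane genes. With the replicate block, which pairs same-numbered libraries, 2 members of other types were lower in place of 1; among members it changed the calls of Col14a1 and Col16a1 and no other. Without both libraries numbered 3, the number of all genes called was 10581 in place of 6938, 9 members were lower, and 4 of the other types were lower. Leaving out 1 library gave 3706 to 8548 called genes, 12 to 17 higher and 1 to 8 lower members, and 5 to 7 higher fibrillar genes. Among basement membrane genes 2 were higher and 0 to 5 lower, and among other types 4 to 8 were higher and 1 to 3 lower. Of the synthesis and handling genes 24 to 38 were higher and 6 to 10 lower in these fits. Over all genes tested, these fits called 8.67% to 22.0% higher and 9.73% to 22.4% lower. Signs turned only for members that were not called and for 1 ratio. With library-size scaling they were Col11a2 (0.025) and Col12a1 (0.10). Without both libraries numbered 3 they were Col6a4 (-0.084) and Col22a1 (-0.14). Leaving out 1 library gave log2 folds of -0.51 to 0.14 for Col11a2, -0.025 to 0.57 for Col6a4 and -0.10 to 0.27 for Col8a1, and differences of -0.0055 to 0.047 for the ratio Col4a1 to Col4a2. The causes were not tested. Members under 1 CPM rest on few counts, and differences there were not detectable at this depth unless large.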
